A study of Mus musculus with 8 samples.

Results

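Gliomaspheres, clusters of transformed mouse astrocytes that grow free in suspension, were compared with astrocytes carrying the same constructs and treated with 4-hydroxytamoxifen (4OH-TAM), the ligand that switches on the recombinase CreERT2. The comparison took the 4 libraries of these groups, 2 per group, out of 8 in the series, by their labels, and 13605 of the 13607 genes in the count table. Cells of all groups came from C57BL/6J mice with floxed alleles of Yap1 and Taz (Wwtr1) and, per the labels, those transformed with HER2CA carried lentiviral HER2CA, rtTA and CreERT2. HER2CA is a receptor tyrosine kinase, HER2, made permanently active and induced by doxycycline through the activator rtTA. The 4OH-TAM-labelled libraries were from HER2CA astrocytes given doxycycline and 1 µM 4OH-TAM for 15 days. The labels call them a YAP/TAZ knockout. The gliomaspheres received doxycycline and no 4OH-TAM, grew in suspension in the same serum-free medium, with 20 ng/ml each of EGF and bFGF, and were harvested at first passage, 3 weeks after the start. For reference, 2 libraries each are given of doxycycline-treated HER2CA astrocytes that had no 4OH-TAM (HER2CA day 15) and of control astrocytes without doxycycline. The labels list DMSO as a condition of the gliomaspheres, although the treatment text calls cells that had no 4OH-TAM untreated, and do not settle which holds. Suspension culture, the time of harvest and 4OH-TAM differ together between gliomaspheres and the 4OH-TAM-labelled libraries and cannot be told apart. The labels do not say whether the A and B libraries of a group came from separate cultures, so the spread that p-values here measure is that between the samples, and may be technical.

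HER2 signals through dimers with the other ErbB receptors and drives the RAS-ERK and PI3K cascades. YAP and TAZ are coactivators of the TEAD transcription factors; the kinases of the Hippo pathway hold them in the cytoplasm, and cell attachment and stretch release them. Sphere culture without serum is widely used to propagate glioma cells and neural stem cells in an undifferentiated state.

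The libraries differed in depth and in 1 respect that touches every value below. Total counts ran from 15517708 in gliomaspheres B to 28231426, and in gliomaspheres B the ribosomal RNA precursor Rn45s took 36.1% of counts and Lars2, a mitochondrial leucyl-tRNA synthetase gene, 2.77%, against 0.984% to 2.92% and 0.0457% to 0.165% in the other libraries. These 2 rows were removed before scaling, which left 9487800 counts in gliomaspheres B. With them removed, 34 genes still differed by 2-fold or more in CPM plus 1 between gliomaspheres A and B, against 0 to 2 genes within the other groups. Adding 1 CPM hides such gaps in genes at a few CPM or less. Mir6236 and Rpph1, noncoding transcripts chosen here after their values were seen, are 2 that were called higher through gliomaspheres B alone. Mir6236 read 78.6 and 105 CPM in the 4OH-TAM-labelled libraries and 52 and 4819 CPM in the gliomaspheres, and Rpph1 read 0.955 and 1.41 CPM in the 4OH-TAM-labelled libraries and 0.673 and 121 CPM in the gliomaspheres. Gliomaspheres A lay below both libraries labelled 4OH-TAM for each of these genes, and without gliomaspheres B the log2 fold changes were -0.82 and -0.81. Over 20% of exon bases are shared with another gene on the same strand for Hist2h2bb, Igf2, Lats2, Rpph1 and Trf, and with one on the opposite strand for Ccnd1, Ctsl, Dll1, Fosl1, Hes5, Hist2h2bb, Nefl, Nrarp, Sav1, Sox4, Spry1 and Ube2c. The sources used here give no strand setting for the counting, so reads of these genes and their partners cannot be told apart. Levels are CPM, counts scaled to a common library total with TMM factors. They are not per transcript length, so they are compared between libraries and not between genes. Pairs of values are libraries A and B, in that order.

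Of the 2 targeted genes, Wwtr1 was lower in the 4OH-TAM-labelled libraries than in any other group, and Yap1 was no lower there than at HER2CA day 15. Yap1 (chr9:7931999-8004596, minus strand) read 108 and 112 CPM at HER2CA day 15, 116 and 112 CPM in the 4OH-TAM-labelled libraries, 139.7 and 146 CPM in the gliomaspheres and 156 and 148 CPM in controls. The 4OH-TAM-labelled libraries were thus at or just above the level of HER2CA day 15 and lay below the gliomaspheres (log2 fold change 0.33, SE 0.0695, edgeR adjusted p = 0.000851). Wwtr1, which encodes TAZ, read 209 and 227 CPM, 133 and 132 CPM, 193 and 188 CPM and 192 and 183 CPM in the same order, with the 4OH-TAM-labelled libraries below all others (log2 fold change 0.52, SE 0.0697, edgeR adjusted p = 1.14e-05). The sources used here do not say which exons are floxed, and gene-level counts need not show a deletion. Erbb2, the mouse HER2 gene, read 31 and 30.1 CPM in the 4OH-TAM-labelled libraries and 22.8 and 25.7 CPM in the gliomaspheres, and its small difference (log2 fold change -0.35, SE 0.0936, edgeR adjusted p = 0.00459) had an adjusted p of 0.0843 without gliomaspheres A. The sources also leave out the species and sequence of HER2CA, so Erbb2 counts need not include it. Both groups compared held astrocyte transcripts at high levels: the glial filament gene Gfap read 3281 and 3397 CPM in the 4OH-TAM-labelled libraries and 2798 and 2855 CPM in the gliomaspheres, and the glutamate transporter gene Slc1a3 read 3231 and 3460.4 CPM and 3111 and 3132 CPM. Neither gene passed the test between the groups (edgeR adjusted p = 0.0973 for Gfap and 0.233 for Slc1a3). HER2CA day 15 was lower for each, at 349 and 377 CPM and 1577 and 1629 CPM.

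The gliomaspheres differed from the 4OH-TAM-labelled libraries at most genes, and mostly by little. At an edgeR quasi-likelihood adjusted p under 0.05, 8271 of 13605 genes were called (60.8%), 4082 of them higher in gliomaspheres (30.0%) and 4189 lower (30.8%). A call in itself therefore says little about a gene. Without scaling factors 3350 genes were called higher and 4927 lower, and the median log2 fold change over all genes was -0.086. With the TMM factors used here that median was -0.0016, so the near-even split depends on the scaling. Only 945 genes were called and at least 2-fold higher (6.95%) and 1583 called and at least 2-fold lower (11.6%), and the larger the difference, the more the lower side outnumbered the higher: 273 against 662 genes at 4-fold or more and 10 against 58 at 16-fold or more. Of the gene lists described here, the highest medians were those of the mitosis and DNA replication lists. The lowest were those of the macrophage, motile cilium, fibroblast and mural, interferon and complement lists, in that order.

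**Figure D1:**
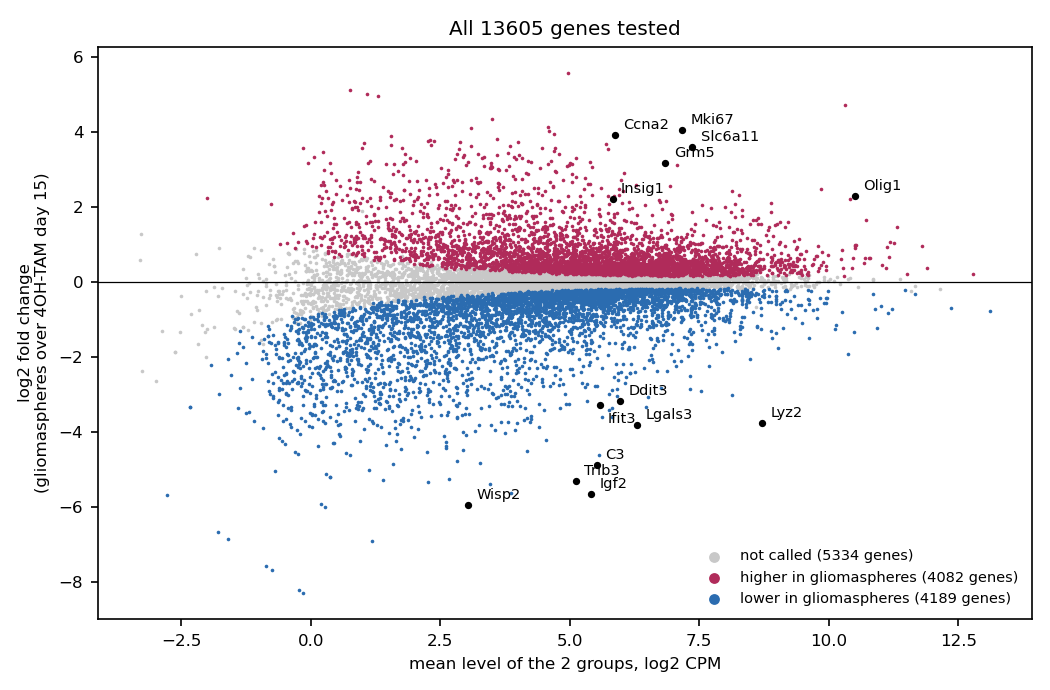
Log2 fold change of gliomaspheres over the 4OH-TAM-labelled libraries (vertical axis) against the mean level of both groups in log2 CPM (horizontal axis) for the 13605 genes tested; each point is a gene, coloured where called (4082 higher, 4189 lower). Labelled genes are ones described in the text, with Mki67 and Ccna2 near the top and Wisp2, Igf2 and Trib3 near the bottom.

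**Figure D2:**
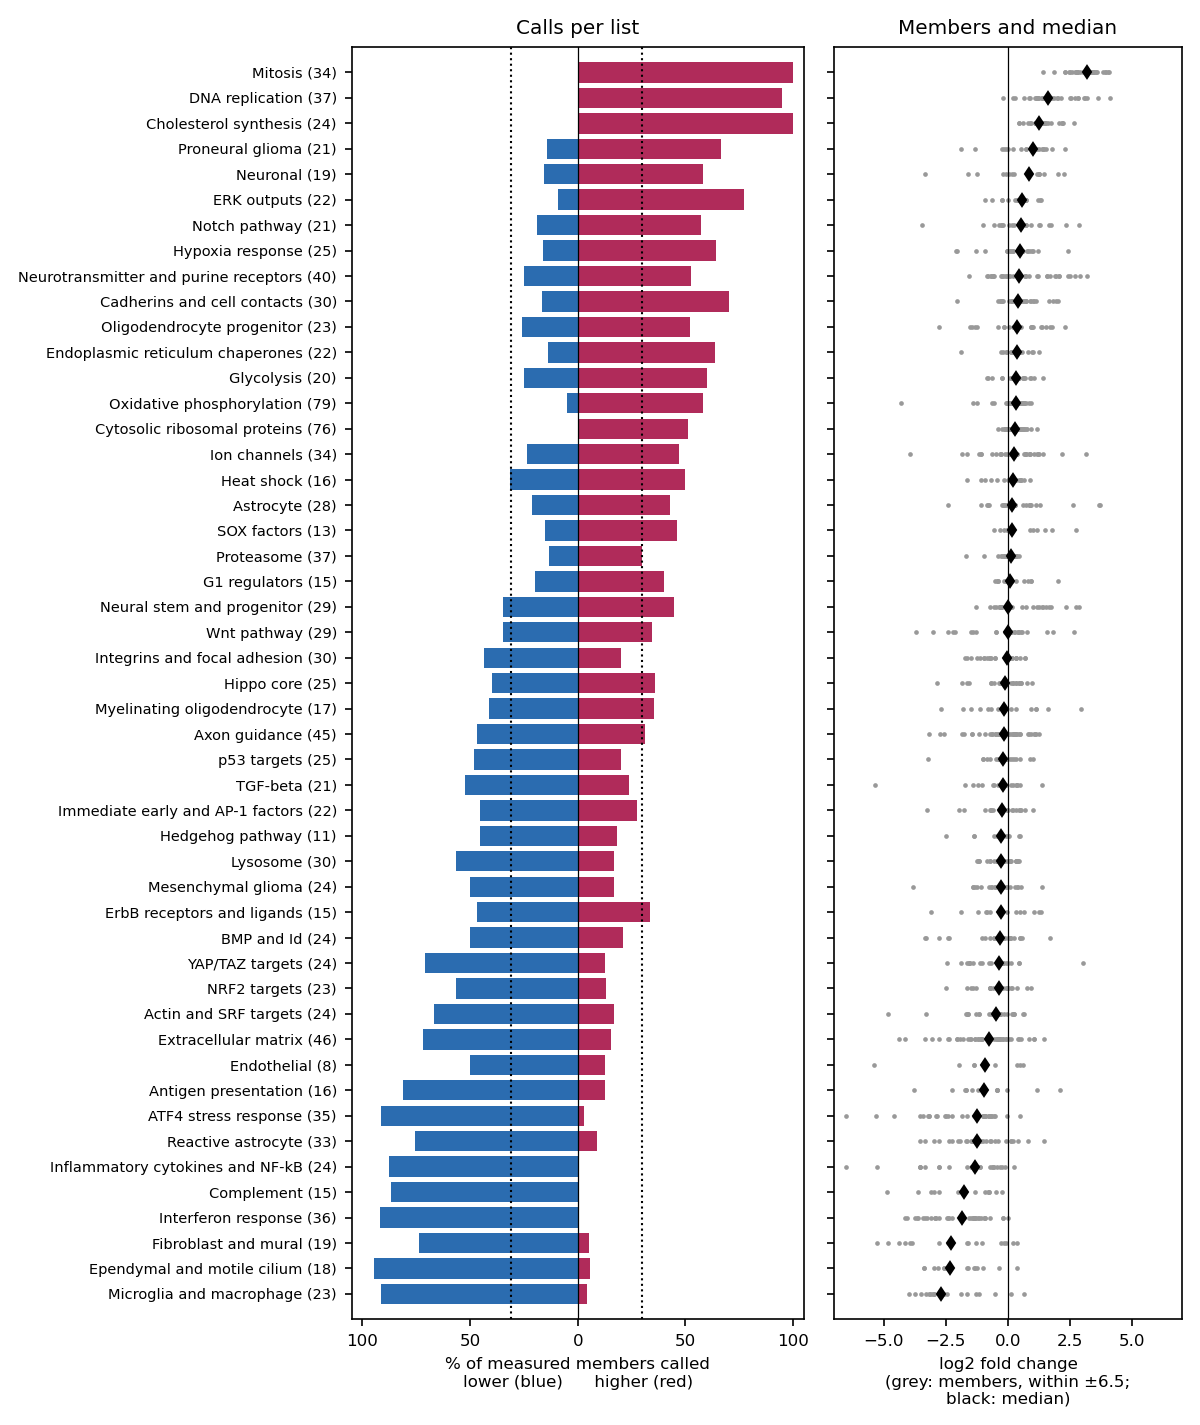
Percent of measured members called lower or higher in gliomaspheres for each gene list (left; dotted lines at the 30.8% and 30.0% of all genes) and the log2 fold changes of the members with their median (right). Mitosis, DNA replication and cholesterol synthesis lie on the higher side and the interferon, macrophage, ATF4 and ependymal lists on the lower side.

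Cell division genes were higher in gliomaspheres as a block. All 34 measured mitosis genes were called higher, and all by at least 2-fold, with a median log2 fold change of 3.17. Mki67 (chr7:135689784-135716361, minus strand), the proliferation marker that coats mitotic chromosomes, read 14.6 and 18.3 CPM in the 4OH-TAM-labelled libraries and 263 and 282 CPM in the gliomaspheres (log2 fold change 4.05, SE 0.143, edgeR adjusted p = 1.02e-11). It read 3.36 and 1.49 CPM at HER2CA day 15 and 3.12 and 2.87 CPM in controls, so that the gliomaspheres stood far above all 6 other libraries. Ccna2, the cyclin of S phase and mitotic entry, read 6.97 and 7.44 CPM in the 4OH-TAM-labelled libraries and 102 and 117 CPM in the gliomaspheres (log2 fold change 3.92, SE 0.114, edgeR adjusted p = 2.62e-12). Top2a, the topoisomerase that untangles replicated chromosomes, read 24.2 and 30.4 CPM in the 4OH-TAM-labelled libraries and 238 and 241 CPM in the gliomaspheres (log2 fold change 3.13, SE 0.101, edgeR adjusted p = 5.4e-12). Both gliomasphere libraries were several times above every other library for each of these genes. Cdc20, the activator of the anaphase-promoting complex, had a log2 fold change of 4.01, its partner ubiquitin-conjugating enzyme Ube2c 3.94 and the kinase Aurkb 3.82. The smallest difference was that of Anln, a scaffold of the cleavage furrow, at 1.42. Summed over the list, mitosis genes took 234 and 256 CPM in the 4OH-TAM-labelled libraries and 1995 and 2066 CPM in the gliomaspheres, against 151 and 129 CPM at HER2CA day 15 and 159 and 153 CPM in controls.

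Replication genes followed with smaller differences. Of 37 measured DNA replication genes 35 were called higher and 0 lower (median 1.59), 31 of them by at least 2-fold. Thymidine kinase Tk1 read 0.789 and 1.08 CPM in the 4OH-TAM-labelled libraries and 16.1 and 16.3 CPM in the gliomaspheres. It was almost without counts at HER2CA day 15, at 0 and 0.0745 CPM, unlike the list as a whole. The list summed to 715 and 656 CPM there against 541 and 543 CPM in the 4OH-TAM-labelled libraries. Its sums were 1541 and 1544 CPM in gliomaspheres and 487 and 498 CPM in controls. Mcm5, a subunit of the replicative helicase, read 7.8 and 9.6 CPM in the 4OH-TAM-labelled libraries and 61.9 and 59.9 CPM in the gliomaspheres (log2 fold change 2.81, SE 0.119, edgeR adjusted p = 4.65e-11). The log2 fold changes of other subunits were smaller, with 1.15 for Mcm7, 1.59 for Mcm6 and 1.64 for Mcm3. Rrm2, the regulated subunit of ribonucleotide reductase, read 16.5 and 16.8 CPM in the 4OH-TAM-labelled libraries and 105 and 114 CPM in the gliomaspheres (log2 fold change 2.71, SE 0.096, edgeR adjusted p = 1.02e-11). The licensing factor Cdc6 (3.20), the cyclin E gene Ccne2 (3.05) and the repressor E2f8 (3.62) had larger log2 fold changes than Mcm5. E2f1 and the helicase cofactor gene Gins4 were the 2 members not called, with log2 fold changes of 0.18 and -0.21.

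The G1 regulators that act before these genes did not share the pattern. Of 15 measured, 6 were called higher and 3 lower (median 0.08). Cdkn2c, an inhibitor of CDK4 and CDK6, read 12.5 and 11.8 CPM in the 4OH-TAM-labelled libraries and 51.5 and 44.7 CPM in the gliomaspheres (log2 fold change 2.0, SE 0.117, edgeR adjusted p = 1.17e-09) and was higher in gliomaspheres, as were its target Cdk4 (0.92) and the cyclin Ccnd1 (0.64). The inhibitors Cdkn2b (-0.51) and Cdkn1b (-0.43) and the brake Rb1 (-0.39) were modestly lower. Cdkn1a, the p21 gene, read 649.9 and 567 CPM in the 4OH-TAM-labelled libraries and 523 and 553 CPM in the gliomaspheres and was not called. Replication-dependent histone genes, whose transcripts mostly lack a polyA tail and which polyA libraries therefore capture poorly, were called higher in 5 of 10 cases and lower in 0. Summed over the list, gliomaspheres A and B were alike at 109.9 and 110.4 CPM. Among its members at a few CPM, Hist1h3d read 1.03 and 4.56 CPM and Hist2h2bb 0.314 and 6.4 CPM, in each case higher in gliomaspheres B. Without gliomaspheres B, Hist1h3d was not called (edgeR adjusted p = 0.0784).

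**Figure D3:**
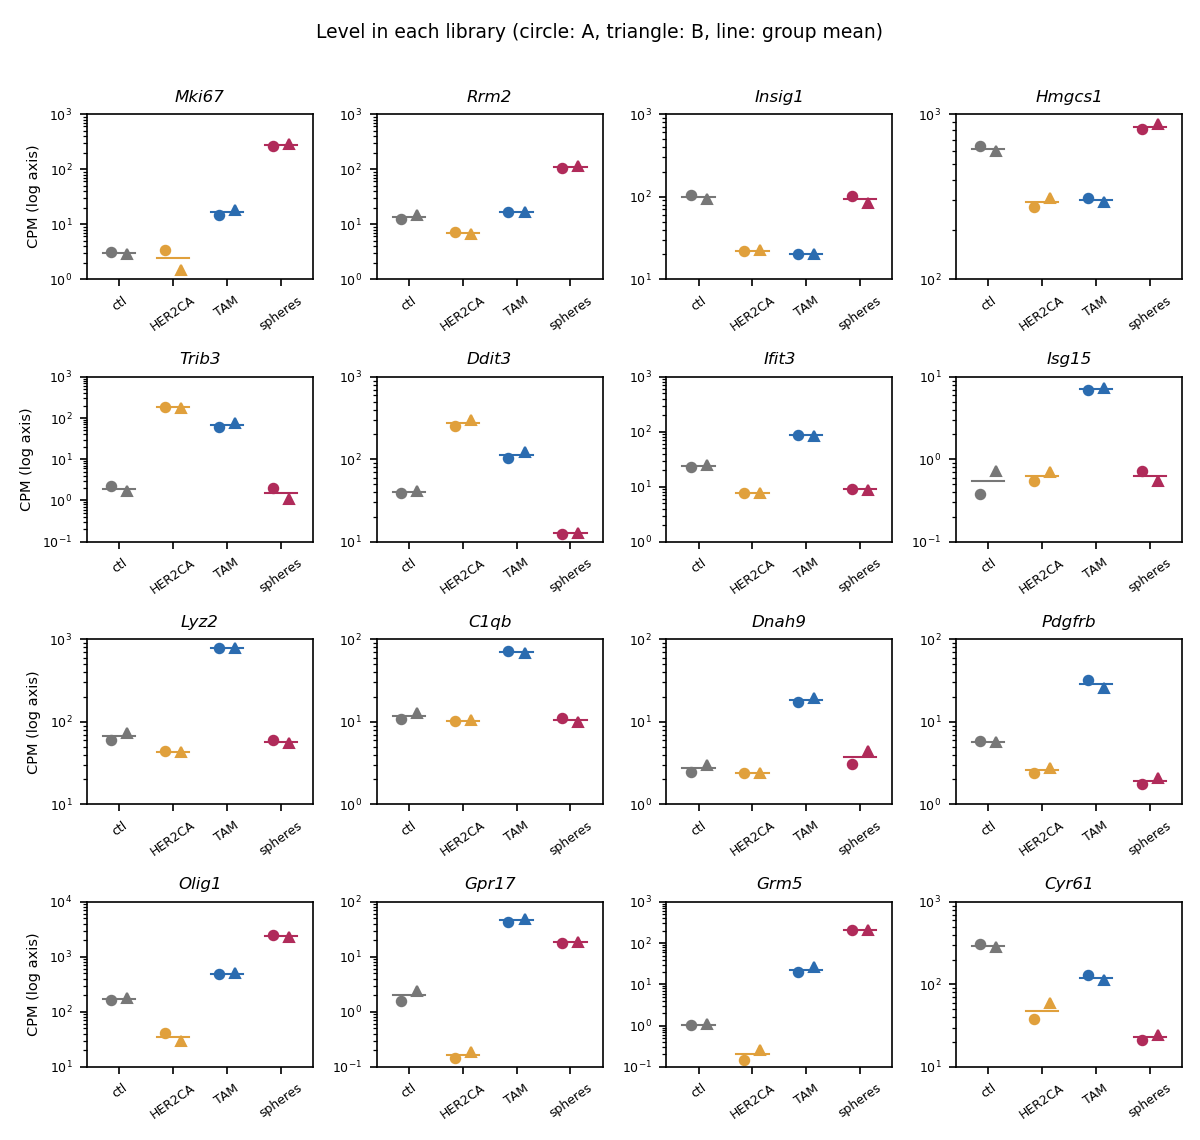
CPM on a log axis in each of the 8 libraries for 16 genes; ctl is control, HER2CA is HER2CA day 15, TAM is the group labelled 4OH-TAM and spheres is gliomaspheres, with circles for A, triangles for B and a line at the group mean. Mki67 and Rrm2 are highest in gliomaspheres, Ifit3, Lyz2, C1qb and Dnah9 are highest in the 4OH-TAM-labelled libraries, and Trib3 and Ddit3 are highest at HER2CA day 15.

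Promoters of 2 mitosis genes are shown because they carry the cell cycle genes homology region, a TTTGAA element bound by the complexes that silence mitotic genes in resting cells. Promoter sequences are RefSeq's, on GRCm38.p6, and each is 120 bases on the gene's own strand within the 250 bases before its start: Mki67 at chr7:135716416-135716535 on the minus strand and Cdc20 at chr4:118437344-118437463 on the minus strand. Capitals mark the match.
Mki67: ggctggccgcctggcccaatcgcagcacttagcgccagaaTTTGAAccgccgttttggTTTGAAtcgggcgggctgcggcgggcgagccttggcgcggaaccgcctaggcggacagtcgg
Cdc20: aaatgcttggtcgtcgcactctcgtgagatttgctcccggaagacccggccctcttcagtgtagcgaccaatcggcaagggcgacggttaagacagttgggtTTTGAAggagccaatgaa
TTTGAA, read on both strands of that 250-base window, was found in 10 of the 29 mitosis genes with a promoter entry (34.5%), against 12.4% of the 10338 tested genes with one and 18.3% of the 27025 genes in the promoter table. The E2F letters GCGGGAA were found in 9 of 30 DNA replication genes (30%), against 8.15% of the tested genes and 4.38% of the table. A match is a description of the letters and not of a bound site.

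Cholesterol synthesis genes were all higher in gliomaspheres. The 24 measured members, enzymes of the mevalonate and sterol pathway with their SREBP regulators, were called higher without exception, 18 of them by at least 2-fold (median 1.26). Insig1, the sterol-responsive anchor of the SREBP system, read 20.3 and 20.1 CPM in the 4OH-TAM-labelled libraries and 101 and 84.9 CPM in the gliomaspheres (log2 fold change 2.22, SE 0.1, edgeR adjusted p = 9.65e-11). Hmgcs1 (chr13:119690379-119708260, plus strand), which makes the precursor of mevalonate, read 312 and 292 CPM in the 4OH-TAM-labelled libraries and 810.4 and 868 CPM in the gliomaspheres (log2 fold change 1.47, SE 0.0826, edgeR adjusted p = 7.35e-10). No library labelled 4OH-TAM reached a gliomasphere library for either gene. The isomerase gene Idi1 had a log2 fold change of 2.16, while Pmvk and Sc5d were the smallest at 0.45 and 0.45. The master regulator Srebf2 had a log2 fold change of 0.95.

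Against the other groups, the gliomaspheres were the highest and controls next. Summed over the list, the level was 3096 and 3175 CPM in gliomaspheres, 2239 and 2192 CPM in controls, 1274 and 1243 CPM in the 4OH-TAM-labelled libraries and 1378 and 1536 CPM at HER2CA day 15. Insig1 did not follow that order: at 105 and 92.7 CPM, controls overlapped with the gliomaspheres, and HER2CA day 15 read 21.7 and 22.7 CPM. The Hmgcs1 promoter at chr13:119690174-119690293 on the plus strand is the 1 cholesterol promoter of 17 with an entry in which the sterol response letters TCACNCCAC were found (5.88%, against 1.23% of tested genes and 1.22% of the table), marked in capitals.
Hmgcs1: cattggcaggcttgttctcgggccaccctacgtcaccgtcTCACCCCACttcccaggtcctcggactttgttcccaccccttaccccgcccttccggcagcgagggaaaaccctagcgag

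Genes of the amino acid and integrated stress response, which the factor ATF4 switches on when translation is held back, were lower in gliomaspheres. Of 35 measured, 32 were called lower (20 of them by at least 2-fold) and 1 higher (median -1.24). Trib3, a pseudokinase induced by stress, read 61.8 and 74.3 CPM in the 4OH-TAM-labelled libraries and 1.97 and 1.09 CPM in the gliomaspheres (log2 fold change -5.32, SE 0.173, edgeR adjusted p = 5.4e-12). Chac1, which degrades glutathione, read 85.8 and 95.3 CPM in the 4OH-TAM-labelled libraries and 3.99 and 3.15 CPM in the gliomaspheres (log2 fold change -4.60, SE 0.127, edgeR adjusted p = 1.53e-12). Both gliomasphere libraries were near the level of controls, where Trib3 read 2.21 and 1.66 CPM and Chac1 2.04 and 1.57 CPM. Ddit3, which encodes the stress factor CHOP, read 104 and 122 CPM in the 4OH-TAM-labelled libraries and 12.4 and 12.8 CPM in the gliomaspheres (log2 fold change -3.17, SE 0.115, edgeR adjusted p = 1.19e-11), and Atf4 itself read 373 and 392 CPM in the 4OH-TAM-labelled libraries and 112 and 98.7 CPM in the gliomaspheres (log2 fold change -1.85, SE 0.0878, edgeR adjusted p = 1.39e-10). Asparagine synthetase Asns read 194 and 242 CPM in the 4OH-TAM-labelled libraries and 42.2 and 50.7 CPM in the gliomaspheres, with a log2 fold change of -2.25. The transfer RNA synthetase genes of the list were lower by less, from -1.38 for Nars and -1.20 for Eprs to -0.57 for Wars, and the serine pathway genes Psat1 and Phgdh had values of -0.99 and -0.70. Fgf21, a stress-induced hormone gene, had 0 counts in the gliomaspheres against 28 in the 4OH-TAM-labelled libraries, at least 6.11-fold lower when set against a floor of 3 counts over the group. Ddit4, which hypoxia also induces, was the 1 member called higher, at 0.48.

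Summed over the list, the level was highest at HER2CA day 15 rather than in either group compared. It was 13339 and 13604 CPM there, 6068 and 7335 CPM in the 4OH-TAM-labelled libraries, 2790.1 and 2922 CPM in gliomaspheres and 2443 and 2512 CPM in controls. Nupr1, a stress-induced chromatin protein gene, read 657 and 631 CPM at HER2CA day 15, 91.2 and 107 CPM in the 4OH-TAM-labelled libraries and 9.73 and 8.36 CPM in gliomaspheres, below even the 34.3 and 33.4 CPM of controls. Promoters of 3 of these genes are shown because they hold the core of the C/EBP-ATF response element, TGATGNAA, which ATF4 and CHOP bind as dimers with C/EBP factors. They are Chac1 at chr2:119351009-119351128 on the plus strand, Nupr1 at chr7:126625501-126625620 on the minus strand and Asns at chr6:7693210-7693329 on the minus strand; capitals mark the match, which reads TTNCATCA where it lies on the other strand.
Chac1: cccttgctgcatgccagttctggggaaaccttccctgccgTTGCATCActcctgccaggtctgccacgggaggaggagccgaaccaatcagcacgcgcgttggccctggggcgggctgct
Nupr1: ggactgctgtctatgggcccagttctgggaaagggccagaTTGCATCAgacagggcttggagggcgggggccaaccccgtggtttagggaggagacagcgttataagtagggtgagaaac
Asns: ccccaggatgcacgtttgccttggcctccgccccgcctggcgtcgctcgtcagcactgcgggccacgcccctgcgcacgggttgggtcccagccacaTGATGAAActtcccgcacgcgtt
Those letters were found in 8 of 28 ATF4 list promoters (28.6%), against 2.39% of tested genes and 3.91% of the table.

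Other stress lists went different ways. The endoplasmic reticulum chaperones, induced by the other arms of the unfolded protein response, were called higher in 14 of 22 cases and lower in 3 (median 0.36). The lumenal chaperone Hspa5 read 435 and 410.4 CPM in the 4OH-TAM-labelled libraries and 546 and 608 CPM in the gliomaspheres (log2 fold change 0.45, SE 0.0789, edgeR adjusted p = 0.000169), and Calr 643 and 567 CPM in the 4OH-TAM-labelled libraries and 1059 and 1296 CPM in the gliomaspheres (log2 fold change 0.96, SE 0.0937, edgeR adjusted p = 3.75e-07). Herpud1, which ATF4 also induces, was the lowest at -1.90. Heat shock genes were split, with 8 of 16 higher, among them Hspa8 (0.90) and Hsp90ab1 (0.66), and 5 lower, led by the small heat shock genes Hspb8 (-1.64) and Cryab (-1.07).

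Targets of the antioxidant factor NRF2 were more often lower, at 13 of 23 against 3 higher (median -0.37). Hmox1, heme oxygenase, read 294 and 291 CPM in the 4OH-TAM-labelled libraries and 101 and 124 CPM in the gliomaspheres (log2 fold change -1.39, SE 0.109, edgeR adjusted p = 3.25e-08), and the glutathione transferase gene Gstm1 read 1215 and 1100.4 CPM and 350.4 and 469 CPM. Me1 and Pgd, which make NADPH, were higher, at 0.91 and 0.76. Among p53 targets 5 of 25 were higher and 12 lower, 3 of the latter by at least 2-fold (median -0.19). Gdf15 (-3.23), which is also in the ATF4 list, was the lowest, and Fas (-1.01) was lower too. Btg2 (0.99) and Plk2 (0.90) were the highest. Lysosomal genes were called lower in 17 of 30 and higher in 5 (median -0.28), and the protease genes Ctsb (-1.24) and Ctsl (-1.21) had the largest differences. The counts of these lists stand against 30.0% of all genes called higher and 30.8% lower.

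Interferon-stimulated genes were the most uniform of the immune lists. Of 36 measured, 33 were called lower in gliomaspheres and 0 higher, 29 by at least 2-fold (median -1.86). Ifit3 (chr19:34583531-34588731, plus strand), an RNA-binding antiviral gene, read 88.8 and 83.9 CPM in the 4OH-TAM-labelled libraries and 9.01 and 8.9 CPM in the gliomaspheres (log2 fold change -3.27, SE 0.102, edgeR adjusted p = 4.81e-12). Ifit1, which binds viral RNA caps, read 34.4 and 35.2 CPM in the 4OH-TAM-labelled libraries and 2.2 and 3.47 CPM in the gliomaspheres (log2 fold change -3.73, SE 0.183, edgeR adjusted p = 1.94e-10), and Isg15, a ubiquitin-like modifier, read 6.97 and 7.23 CPM in the 4OH-TAM-labelled libraries and 0.718 and 0.543 CPM in the gliomaspheres (log2 fold change -3.41, SE 0.266, edgeR adjusted p = 3.03e-08). Each pair of libraries labelled 4OH-TAM stood well above both gliomasphere libraries. The interferon-inducible guanosine triphosphatase gene Iigp1 read 14.5 and 14.6 CPM in the 4OH-TAM-labelled libraries and 1.52 and 1.19 CPM in the gliomaspheres, with 0.296 and 0.335 CPM at HER2CA day 15 and 0.166 and 0.18 CPM in controls. Factors that carry the signal were lower by less than these genes, with Irf7 at -2.94, Irf9 at -1.32 and Stat2 at -1.07. Gbp3, Irgm1 and Ifi203 were not called. The list summed to 1021 and 1029 CPM in the 4OH-TAM-labelled libraries, 387 and 397 CPM in gliomaspheres, 594 and 569.9 CPM at HER2CA day 15 and 462 and 463 CPM in controls.

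Promoters of Ifit1, Isg15 and Ifit3 are shown because each holds the core of the interferon-stimulated response element, GAAANNGAA, more than once or in overlapping copies. The stretches are chr19:34640740-34640859 on the plus strand for Ifit1, chr4:156200819-156200938 on the minus strand for Isg15 and chr19:34583334-34583453 on the plus strand for Ifit3. Capitals mark the matches, which read TTCNNTTTC where they lie on the other strand.
Ifit1: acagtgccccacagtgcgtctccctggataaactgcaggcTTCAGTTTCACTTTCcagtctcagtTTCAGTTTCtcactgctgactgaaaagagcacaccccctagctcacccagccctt
Isg15: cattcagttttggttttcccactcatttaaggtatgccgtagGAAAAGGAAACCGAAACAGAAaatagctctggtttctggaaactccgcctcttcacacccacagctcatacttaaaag
Ifit3: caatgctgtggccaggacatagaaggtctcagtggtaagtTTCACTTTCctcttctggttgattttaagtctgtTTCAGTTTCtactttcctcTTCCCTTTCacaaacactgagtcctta
These letters were found in 16 of 25 interferon list promoters (64%), against 7.24% of tested genes and 8.18% of the table. The 3 members not called, Gbp3, Irgm1 and Ifi203, hold them too.

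Markers of microglia and macrophages, cells that astrocyte cultures from brain commonly carry, moved with these genes. Of 23 measured markers 21 were called lower and 1 higher (median -2.69), and the list summed to 1548 and 1485 CPM in the 4OH-TAM-labelled libraries, 198 and 200.2 CPM in gliomaspheres, 313 and 328 CPM at HER2CA day 15 and 342 and 377 CPM in controls. Lyz2, a lysozyme of myeloid cells, read 789.9 and 775 CPM in the 4OH-TAM-labelled libraries and 60.1 and 55.3 CPM in the gliomaspheres (log2 fold change -3.76, SE 0.0954, edgeR adjusted p = 7.2e-13). The complement component gene C1qb read 72.4 and 67.5 CPM in the 4OH-TAM-labelled libraries and 11 and 9.88 CPM in the gliomaspheres (log2 fold change -2.72, SE 0.11, edgeR adjusted p = 2.99e-11), and the pan-leukocyte gene Ptprc read 12 and 12.2 CPM and 1.35 and 1.41 CPM. No marker of the list was at 0 in every library of either group. The macrophage receptor gene Csf1r read 22.4 and 23.6 CPM in the 4OH-TAM-labelled libraries and 6.19 and 5.97 CPM in the gliomaspheres (log2 fold change -1.91, SE 0.137, edgeR adjusted p = 1.24e-08). Outside the range of the other called markers, Cx3cr1 was lower by little (-0.52), and P2ry12 was higher (0.65) at 3.5 and 2.5 CPM in gliomaspheres; without gliomaspheres A neither was called (edgeR adjusted p = 0.26 and 0.476), nor was Cx3cr1 without 4OH-TAM B (0.124) or P2ry12 without 4OH-TAM A or B (0.0759 and 0.0722). In bulk RNA, fewer cells of a type and less RNA per cell cannot be told apart. The part of these markers in the differences of the interferon, complement, inflammatory and antigen presentation lists was not tested.

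Complement and inflammatory genes were lower alongside. Complement genes were called lower in 13 of 15 cases and higher in 0 (median -1.77). C3, the central component, read 67.3 and 110.5 CPM in the 4OH-TAM-labelled libraries and 2.74 and 3.58 CPM in the gliomaspheres (log2 fold change -4.88, SE 0.236, edgeR adjusted p = 1.73e-10), with a wide gap between the 2 libraries labelled 4OH-TAM. Serping1, the C1 inhibitor gene, read 34.9 and 30.9 CPM in the 4OH-TAM-labelled libraries and 3.5 and 5.32 CPM in the gliomaspheres (log2 fold change -2.99, SE 0.164, edgeR adjusted p = 5.74e-10), and C4b read 291 and 296 CPM and 176 and 168 CPM. Cytokine and NF-kB pathway genes were called lower in 21 of 24 cases and higher in 0 (median -1.34). Vcam1, an adhesion molecule for leukocytes, read 342 and 344 CPM in the 4OH-TAM-labelled libraries and 109 and 109 CPM in the gliomaspheres (log2 fold change -1.65, SE 0.0732, edgeR adjusted p = 8.25e-11). The chemokine gene Cxcl1 read 5.15 and 5.15 CPM and 0.135 and 0.109 CPM, and Il1a had 0 counts in the gliomaspheres against 87 in the 4OH-TAM-labelled libraries, at least 19.0-fold lower against the same floor. Ptgs2, cyclooxygenase 2, was lower in gliomaspheres (-2.38) but by far the highest at HER2CA day 15, at 94.4 and 93.7 CPM.

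Antigen presentation genes were mostly lower. Of 16 measured genes 13 were lower and 2 higher (median -0.97). B2m, the light chain of class I molecules, read 345 and 314 CPM in the 4OH-TAM-labelled libraries and 164 and 174 CPM in the gliomaspheres (log2 fold change -0.97, SE 0.0742, edgeR adjusted p = 2.53e-08), and the heavy chain gene H2-K1 read 117 and 101 CPM in the 4OH-TAM-labelled libraries and 33.1 and 32 CPM in the gliomaspheres (log2 fold change -1.74, SE 0.089, edgeR adjusted p = 2.96e-10). The class II gene H2-Ab1 and its activator Ciita were the 2 members higher in gliomaspheres, at 3.18 and 2.28 CPM and 1.39 and 2.39 CPM against 1.45 and 1.08 CPM and 0.498 and 0.291 CPM. Without gliomaspheres A, H2-Ab1 was not called (edgeR adjusted p = 0.0827). Reads of class I genes can be split among near-identical family members, so values of single H2 genes are uncertain. Genes induced in reactive astrocytes were called lower in 25 of 33 cases and higher in 3 (median -1.26). Lcn2, Iigp1 and Serping1 were the lowest of them, while Serpina3n (0.20) was not called and Fkbp5, a glucocorticoid-induced gene, was higher at 1.45.

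**Figure D4:**
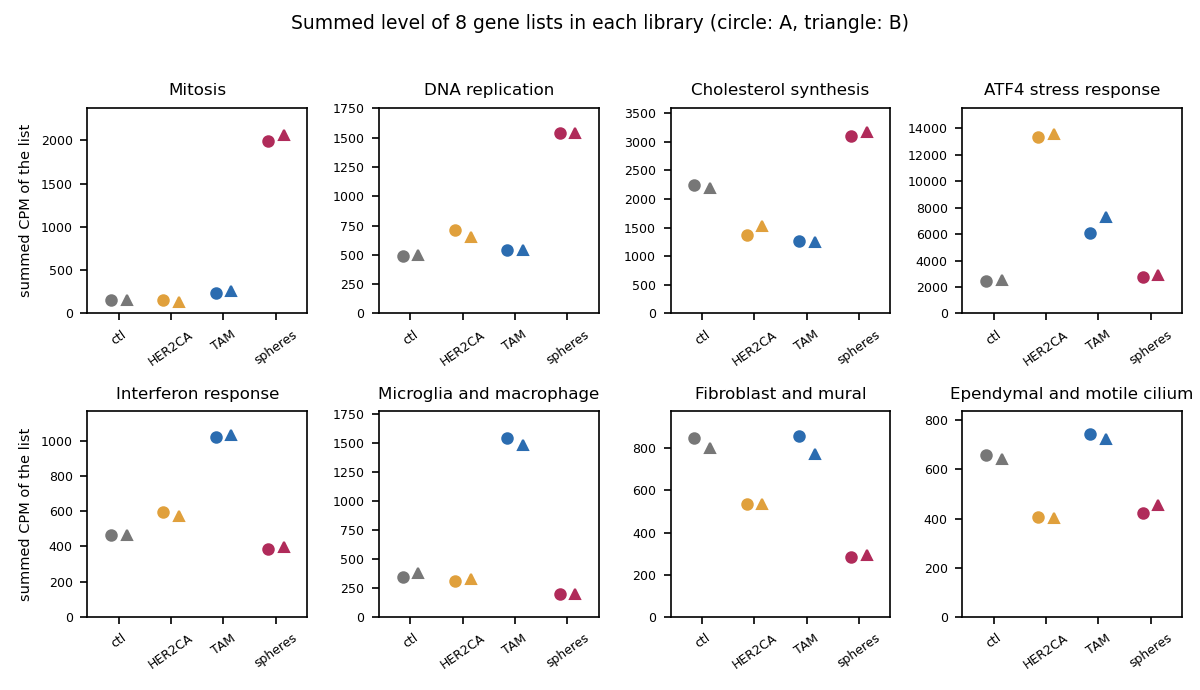
Summed CPM of 8 gene lists in each library, on axes that start at 0, with groups as in the plot of single genes (ctl, HER2CA, TAM, spheres) and circles for A and triangles for B. Mitosis and replication sums are highest in gliomaspheres, the interferon, macrophage and ependymal sums are highest in the 4OH-TAM-labelled libraries, the fibroblast and mural sums of those libraries overlap with controls, and the ATF4 sum is highest at HER2CA day 15.

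Extracellular matrix genes were mostly lower, with the brain proteoglycan genes Ncan and Bcan among the exceptions. Of 46 measured, 33 were lower and 7 higher (median -0.77). The fibrillar collagen gene Col1a1 read 90.5 and 71.1 CPM in the 4OH-TAM-labelled libraries and 11.5 and 12.2 CPM in the gliomaspheres (log2 fold change -2.78, SE 0.121, edgeR adjusted p = 7.22e-11) and Col3a1 read 187 and 157 CPM in the 4OH-TAM-labelled libraries and 32.5 and 34.5 CPM in the gliomaspheres (log2 fold change -2.36, SE 0.0919, edgeR adjusted p = 2.12e-11). Thbs1, thrombospondin 1, read 94.5 and 111 CPM in the 4OH-TAM-labelled libraries and 9.96 and 10.3 CPM in the gliomaspheres (log2 fold change -3.35, SE 0.137, edgeR adjusted p = 3.21e-11), and Sparc, a secreted collagen-binding protein of astrocytes, read 2139.6 and 2050.1 CPM in the 4OH-TAM-labelled libraries and 577 and 536 CPM in the gliomaspheres (log2 fold change -1.91, SE 0.0775, edgeR adjusted p = 2.99e-11). In all 4 genes the groups were far apart. Basement membrane genes were lower by less, with Nid1 at -1.33, Hspg2 at -1.03 and Col4a1 at -0.67. Fn1 (0.12), Tnc (-0.06) and Vcan (0.05) were not called. Neurocan, encoded by Ncan, read 1339 and 1387 CPM in the 4OH-TAM-labelled libraries and 3562 and 3925 CPM in the gliomaspheres (log2 fold change 1.46, SE 0.0915, edgeR adjusted p = 2.65e-09), and brevican, encoded by Bcan, read 331 and 364 CPM in the 4OH-TAM-labelled libraries and 703 and 742 CPM in the gliomaspheres (log2 fold change 1.05, SE 0.088, edgeR adjusted p = 6.38e-08). These proteoglycans of the brain, with Col11a1 (1.05), were the highest members in gliomaspheres.

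Markers of fibroblasts and of the mural cells of vessels moved the same way. Of 19 measured, 14 were lower and 1 higher (median -2.30); they summed to 859 and 773 CPM in the 4OH-TAM-labelled libraries, 285 and 295 CPM in gliomaspheres, 535 and 536 CPM at HER2CA day 15 and 850.3 and 799 CPM in controls, and collagen genes are members of this list and of the matrix list alike. Pdgfrb, a receptor of pericytes and fibroblasts, read 32 and 25.4 CPM in the 4OH-TAM-labelled libraries and 1.75 and 2.06 CPM in the gliomaspheres (log2 fold change -3.95, SE 0.186, edgeR adjusted p = 1.3e-10). The peptidase gene Anpep read 39.6 and 39.1 CPM in the 4OH-TAM-labelled libraries and 2.51 and 3.04 CPM in the gliomaspheres (log2 fold change -3.87, SE 0.158, edgeR adjusted p = 3.12e-11), and Dcn, decorin, read 8.34 and 6.52 CPM and 0.179 and 0.977 CPM. No marker was at 0 in both libraries of a group. The pericyte marker Rgs5 and the mesenchymal factor Twist1 were not called. Of 8 measured endothelial markers 4 were lower and 1 higher, most of them at a few CPM, with the transporter gene Slco1a4 the furthest apart at 20.01 and 22.9 CPM and 0.404 and 0.76 CPM. The part of these cells in the matrix differences was not tested.

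Genes of motile cilia, which ependymal cells carry, were lower in 17 of 18 cases and higher in 1 (median -2.34). The dynein gene Dnah9 read 17.5 and 19.2 CPM in the 4OH-TAM-labelled libraries and 3.09 and 4.45 CPM in the gliomaspheres (log2 fold change -2.37, SE 0.171, edgeR adjusted p = 1.36e-08). Foxj1, the factor that builds motile cilia, read 238 and 239 CPM in the 4OH-TAM-labelled libraries and 95.4 and 93.5 CPM in the gliomaspheres (log2 fold change -1.34, SE 0.0678, edgeR adjusted p = 2.71e-10), a little above the 77.5 and 78.4 CPM of HER2CA day 15 and under the 215 and 225 CPM of controls. Drc1, a regulator of ciliary dynein, read 67.1 and 58.8 CPM in the 4OH-TAM-labelled libraries and 12.7 and 10.7 CPM in the gliomaspheres, and at 103 and 104 CPM it was higher still at HER2CA day 15. Summed levels were 745 and 722 CPM in the 4OH-TAM-labelled libraries, 425 and 456 CPM in gliomaspheres, 407 and 402 CPM at HER2CA day 15 and 659 and 641 CPM in controls. Rfx4, a factor also expressed in neural progenitors, was the member called higher.

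Contractile genes were more often lower, while adhesion genes were mixed. Actin and SRF targets were called lower in 16 of 24 cases and higher in 4 (median -0.48). Cnn1, a smooth muscle calponin, read 19.7 and 17.9 CPM in the 4OH-TAM-labelled libraries and 0.852 and 0.217 CPM in the gliomaspheres (log2 fold change -4.82, SE 0.236, edgeR adjusted p = 1.91e-10). The widely expressed Cnn3 read 1552 and 1541 CPM in the 4OH-TAM-labelled libraries and 689 and 697 CPM in the gliomaspheres (log2 fold change -1.16, SE 0.0863, edgeR adjusted p = 1.87e-08), while the cytoplasmic actins were higher, with Actb at 1426 and 1341 CPM in the 4OH-TAM-labelled libraries and 1817 and 2474 CPM in the gliomaspheres (log2 fold change 0.63, SE 0.111, edgeR adjusted p = 0.000165). Integrin and focal adhesion genes were called lower in 13 of 30 and higher in 6 (median -0.05), against 30.8% and 30.0% of all genes. Their sums overlapped, at 4927 and 4954 CPM in the 4OH-TAM-labelled libraries and 4952 and 5084 CPM in the gliomaspheres. The laminin receptor chain Itga3 read 51.4 and 42.8 CPM in the 4OH-TAM-labelled libraries and 16 and 13.1 CPM in the gliomaspheres (log2 fold change -1.66, SE 0.114, edgeR adjusted p = 7.97e-09) and the actin crosslinker Actn1 141 and 136 CPM in the 4OH-TAM-labelled libraries and 48.6 and 50.2 CPM in the gliomaspheres (log2 fold change -1.49, SE 0.0718, edgeR adjusted p = 1.64e-10). The fibronectin and vitronectin receptor chains Itgav (0.49) and Itgb1 (0.33) were slightly higher.

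TGF-beta and BMP pathway genes were lower more often than higher, where 30.8% of all genes were called lower and 30.0% higher. TGF-beta pathway genes were lower in 11 of 21 and higher in 5 (median -0.20). The lowest was the matrix gene Ltbp2 (9.88 and 8.6 CPM and 0.0897 and 0.543 CPM), and the receptor gene Tgfbr2 was also lower (log2 fold change -1.21, SE 0.0878, edgeR adjusted p = 1.36e-08). BMP and Id genes were lower in 12 of 24 and higher in 5 (median -0.34). Id4, an inhibitor of proneural factors and a BMP target, read 104 and 101 CPM in the 4OH-TAM-labelled libraries and 18.1 and 20.3 CPM in the gliomaspheres (log2 fold change -2.43, SE 0.0989, edgeR adjusted p = 3.12e-11), and the ligand gene Bmp6 read 30.3 and 29.1 CPM in the 4OH-TAM-labelled libraries and 2.78 and 3.47 CPM in the gliomaspheres (log2 fold change -3.30, SE 0.154, edgeR adjusted p = 1.21e-10). Id3 (-0.71) and Id1 (-0.43) were lower by less, Id2 (-0.10) was not called, and the ligand gene Bmp7 was higher at 1.69.

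YAP and TAZ target genes were more often lower in gliomaspheres, where Yap1 and Wwtr1 themselves were slightly higher. Of 24 measured targets 17 were called lower and 3 higher (median -0.37). Cyr61, the matricellular gene most used as a readout of the pathway, read 128 and 114 CPM in the 4OH-TAM-labelled libraries and 20.9 and 24.5 CPM in the gliomaspheres (log2 fold change -2.44, SE 0.161, edgeR adjusted p = 4.69e-09). Ctgf, its close relative, read 29 and 27.4 CPM in the 4OH-TAM-labelled libraries and 9.01 and 11 CPM in the gliomaspheres (log2 fold change -1.53, SE 0.135, edgeR adjusted p = 1.24e-07), and Amotl2, a target that feeds back on YAP, read 49.98 and 50.02 CPM in the 4OH-TAM-labelled libraries and 18.2 and 14.5 CPM in the gliomaspheres (log2 fold change -1.57, SE 0.148, edgeR adjusted p = 2.42e-07). For all 3 genes both gliomasphere libraries lay below both libraries labelled 4OH-TAM. Controls were highest for Cyr61, at 308 and 283 CPM, and HER2CA day 15 read 37.6 and 58.8 CPM. HER2CA day 15 was lowest for Ctgf, at 1.14 and 1.34 CPM. Summed over the target list, the 4OH-TAM-labelled libraries were the highest, at 3091 and 3217 CPM. The sums were 2535 and 2662 CPM in gliomaspheres, 2367 and 2536 CPM at HER2CA day 15 and 2509 and 2405 CPM in controls. The membrane repair gene Myof read 196 and 196 CPM in the 4OH-TAM-labelled libraries and 53.7 and 50.3 CPM in the gliomaspheres (log2 fold change -1.91, SE 0.0799, edgeR adjusted p = 4.25e-11), and the stress gene Gadd45b 10.4 and 8.89 CPM and 3.41 and 2.93 CPM.

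The remaining targets ranged more widely. The log2 fold changes of those called lower were Wwc1 (-1.65), Crim1 (-1.42), Dock5 (-1.12), Nuak2 (-1.06), Ajuba (-0.76), Lats2 (-0.68), Axl (-0.45), Rbms3 (-0.29), Ptpn14 (-0.28), F3 (-0.27), Tgfb2 (-0.21) and Arhgef17 (-0.20). The calls of Rbms3, F3, Tgfb2 and Arhgef17 did not hold without every single library: the adjusted p reached 0.128 for Rbms3 without 4OH-TAM B, 0.23 for F3 without 4OH-TAM A, 0.355 for Tgfb2 without gliomaspheres A and 0.144 for Arhgef17 without 4OH-TAM A, all from edgeR. Nt5e, Igfbp3, Asap1 and Fjx1 were not called. The 3 called higher were Tead1 (0.45), which is also the DNA-binding partner of YAP, the junction scaffold Amotl1 (0.44) and Birc5 (3.02), the survivin gene, which is also a member of the mitosis list. The Amotl2 promoter at chr9:102717684-102717803 on the plus strand is shown because it holds the TEAD letters GGAATG, here as CATTCC on the other strand, in capitals.
Amotl2: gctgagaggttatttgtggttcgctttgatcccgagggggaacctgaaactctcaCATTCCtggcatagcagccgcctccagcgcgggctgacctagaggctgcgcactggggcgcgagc
These letters were found in 5 of 16 target promoters (31.2%), against 12.8% of tested genes and 14.4% of the table, in a window that covers no distal enhancer.

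Hippo core genes were called in about the proportions of all genes (30.0% higher, 30.8% lower). Of 25 measured genes 9 were higher, 10 lower and 6 not called (median -0.12). Of the kinases that inhibit YAP and their partners, Lats1 (-0.16), Stk4 (-0.10) and the scaffold Sav1 (-0.12) were not called, and Lats2 (-0.68), Stk3 (-0.38) and Mob1a (-0.56) were lower. Wwc1, the KIBRA scaffold upstream of them, read 241 and 255 CPM in the 4OH-TAM-labelled libraries and 84.5 and 72.2 CPM in the gliomaspheres (log2 fold change -1.65, SE 0.0872, edgeR adjusted p = 4.01e-10). Nf2, the merlin tumour suppressor, was higher at 172 and 186 CPM in the 4OH-TAM-labelled libraries and 256 and 264 CPM in the gliomaspheres (log2 fold change 0.54, SE 0.0692, edgeR adjusted p = 7.64e-06). TEAD family genes went both ways: Tead2 read 35.3 and 31 CPM in the 4OH-TAM-labelled libraries and 53.2 and 60.5 CPM in the gliomaspheres and Tead4 read 4.23 and 3.53 CPM in the 4OH-TAM-labelled libraries and 1.12 and 0.977 CPM in the gliomaspheres, so that Tead2 (0.77) and Tead1 were higher and Tead4 (-1.85) and Tead3 (-0.33) lower. The TEAD cofactors Vgll4 (0.96), a competitor of YAP, and Vgll3 (-2.86) also differed in sign. Other members called were Amot (0.31), Taok2 (0.19) and Wwc2 (-0.67), and Taok1, Taok3 and Mob1b were not. Tead3 and Taok2 lost their calls without 4OH-TAM A (edgeR adjusted p = 0.0784 and 0.106), while without gliomaspheres A Taok1 and Taok3 gained one (0.0011 and 0.018).

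**Figure D5:**
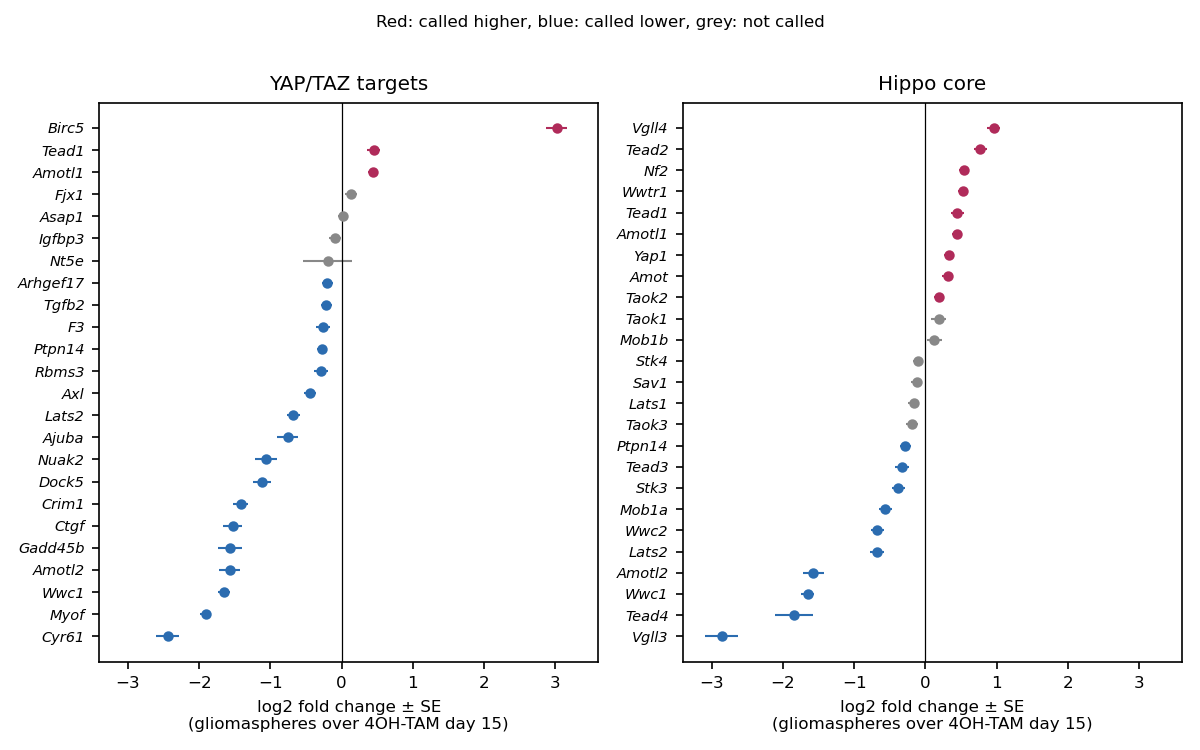
Log2 fold change of gliomaspheres over the 4OH-TAM-labelled libraries, with its SE, for the 24 measured YAP/TAZ targets and the 25 measured Hippo core genes; red was called higher, blue called lower and grey not called. Cyr61 is the lowest target, Birc5 stands alone on the higher side, and Yap1 and Wwtr1 sit just above 0.

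Outputs of the ERK cascade, the branch of growth factor signalling that ErbB receptors drive, were higher. Of 22 measured, 17 were called higher and 2 lower (median 0.57). The feedback inhibitor gene Spry1 read 20.1 and 19.4 CPM in the 4OH-TAM-labelled libraries and 47.3 and 54.1 CPM in the gliomaspheres (log2 fold change 1.35, SE 0.105, edgeR adjusted p = 3.16e-08), and the ETS factor genes Etv1 and Etv4 read 88.6 and 89.8 CPM and 147 and 159 CPM in gliomaspheres against 35.7 and 36.9 CPM and 69.3 and 60.8 CPM. Dusp6, the phosphatase that resets ERK, read 100.4 and 114 CPM in the 4OH-TAM-labelled libraries and 161 and 184 CPM in the gliomaspheres (log2 fold change 0.68, SE 0.0873, edgeR adjusted p = 7.32e-06). In each of these genes both gliomasphere libraries lay above both libraries labelled 4OH-TAM, and all of them were lowest at HER2CA day 15, where Dusp6 read 15.3 and 17.2 CPM and Etv4 6.81 and 7.82 CPM. Myc read 64.8 and 74.9 CPM in the 4OH-TAM-labelled libraries and 106 and 125 CPM in the gliomaspheres (log2 fold change 0.72, SE 0.0917, edgeR adjusted p = 7.2e-06). The kinase receptor genes Epha4 (-0.91) and Epha2 (-0.64) were the 2 called lower, and Ier3, Fosl1 and Spred1 were not called.

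ErbB receptor and ligand genes included higher and lower members. Egfr read 143 and 147 CPM in the 4OH-TAM-labelled libraries and 320.3 and 362 CPM in the gliomaspheres (log2 fold change 1.23, SE 0.0821, edgeR adjusted p = 5.31e-09), with 56.3 and 63.9 CPM at HER2CA day 15 and 121 and 131 CPM in controls. Its ligand gene Tgfa read 40.2 and 35.7 CPM in the 4OH-TAM-labelled libraries and 89.2 and 100.3 CPM in the gliomaspheres (log2 fold change 1.31, SE 0.0907, edgeR adjusted p = 8.08e-09), and Erbb4 read 6.02 and 9.02 CPM in the 4OH-TAM-labelled libraries and 14.6 and 16.8 CPM in the gliomaspheres (log2 fold change 1.04, SE 0.177, edgeR adjusted p = 0.000114). For all 3 the gliomaspheres were the highest of the 8 libraries. Nrg1, the neuregulin ligand of ERBB3 and ERBB4, read 9.13 and 8.48 CPM in the 4OH-TAM-labelled libraries and 1.08 and 0.868 CPM in the gliomaspheres (log2 fold change -3.11, SE 0.222, edgeR adjusted p = 1.16e-08), against 37.3 and 45.2 CPM at HER2CA day 15. Erbb3 itself read 2.49 and 2.29 CPM in the 4OH-TAM-labelled libraries and 0.583 and 0.76 CPM in the gliomaspheres (log2 fold change -1.90, SE 0.293, edgeR adjusted p = 4.72e-05). The ligands Ereg (-1.22), Hbegf (-0.90), Nrg2 (-0.86) and Egf (-0.74) were lower, the feedback inhibitors Lrig1 (0.63) and Errfi1 (0.32) were higher, and Btc, Areg and Lrig3 were not called. In all 5 of 15 members were higher, near the 30.0% of all genes, and 7 lower (median -0.30). Without gliomaspheres A the lower count was 4, with edgeR adjusted p of 0.0712 for Ereg and 0.276 for Egf, and without 4OH-TAM B Errfi1 was not called (0.0938).

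Immediate early genes are induced within minutes by ERK and stress kinases alike. They were higher in 6 of 22 cases, near the 30.0% of all genes, and lower in 10 (median -0.24). Atf3, which ATF4 also induces, read 53.5 and 61.7 CPM in the 4OH-TAM-labelled libraries and 5.96 and 6.19 CPM in the gliomaspheres (log2 fold change -3.25, SE 0.128, edgeR adjusted p = 2.31e-11) and Klf4 37.6 and 42.9 CPM in the 4OH-TAM-labelled libraries and 12.2 and 11.1 CPM in the gliomaspheres (log2 fold change -1.77, SE 0.105, edgeR adjusted p = 1.33e-09). Both were far higher at HER2CA day 15, at 134 and 159 CPM and 235 and 229 CPM. Egr1 (0.69) and Btg2 (0.99) were higher in gliomaspheres, and Fos (-0.02) was not called.

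Oligodendrocyte progenitor genes were more often higher than lower in gliomaspheres. Of 23 measured progenitor genes 12 were higher and 6 lower (median 0.37). Olig1 (chr16:91269772-91271933, plus strand), a basic helix-loop-helix factor of the lineage, read 484 and 504 CPM in the 4OH-TAM-labelled libraries and 2527 and 2314 CPM in the gliomaspheres (log2 fold change 2.29, SE 0.111, edgeR adjusted p = 1.74e-10). It was also low at HER2CA day 15, at 40.6 and 29.6 CPM, and in controls, at 166 and 182 CPM. Olig2, its neighbour on chromosome 16 and a core factor of glioma stem cells, read 256 and 258 CPM in the 4OH-TAM-labelled libraries and 797 and 683 CPM in the gliomaspheres (log2 fold change 1.52, SE 0.0841, edgeR adjusted p = 6.32e-10), and Sox8 read 54.4 and 59.6 CPM in the 4OH-TAM-labelled libraries and 195 and 196 CPM in the gliomaspheres (log2 fold change 1.78, SE 0.0874, edgeR adjusted p = 1.94e-10). The receptor Pdgfra, which defines these progenitors, read 34 and 57.8 CPM in the 4OH-TAM-labelled libraries and 52.4 and 54.6 CPM in the gliomaspheres and was not called, though without 4OH-TAM B it was called higher (0.65, edgeR adjusted p = 0.000976). Neither was Sox10 called, at 25.1 and 23.1 CPM in gliomaspheres. Both genes read under 7 CPM at HER2CA day 15 and in controls. Gpr17, a receptor of cells committed to differentiate, read 42.9 and 49.2 CPM in the 4OH-TAM-labelled libraries and 17.7 and 18.9 CPM in the gliomaspheres (log2 fold change -1.34, SE 0.123, edgeR adjusted p = 1.86e-07), and Bcas1, a gene of newly formed oligodendrocytes, read 37.7 and 37.6 CPM in the 4OH-TAM-labelled libraries and 13 and 12.9 CPM in the gliomaspheres (log2 fold change -1.54, SE 0.117, edgeR adjusted p = 2.38e-08). Here the 4OH-TAM-labelled libraries were the highest of all.

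Myelin genes too were called in nearly the proportions of all genes. Of 17 measured, 6 were higher and 7 lower (median -0.14). Myelin basic protein Mbp read 25.7 and 17 CPM in the 4OH-TAM-labelled libraries and 7.49 and 7.6 CPM in the gliomaspheres (log2 fold change -1.5, SE 0.188, edgeR adjusted p = 5.77e-06) and Enpp6 2.74 and 2.62 CPM and 0.762 and 0.76 CPM, while Cnp (0.11) was not called. Omg, a surface protein of oligodendrocytes and neurons, read 6.1 and 5.86 CPM in the 4OH-TAM-labelled libraries and 42.2 and 50.9 CPM in the gliomaspheres (log2 fold change 2.95, SE 0.155, edgeR adjusted p = 8.8e-10) and the transferrin gene Trf 119.8 and 116 CPM in the 4OH-TAM-labelled libraries and 335 and 376 CPM in the gliomaspheres (log2 fold change 1.59, SE 0.0736, edgeR adjusted p = 1.11e-10), both far above every other group.

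The proneural gene set of glioma, which overlaps with these progenitor genes, was higher in 14 of 21 cases and lower in 3 (median 0.99), and the mesenchymal set was higher in 4 of 24 and lower in 12 (median -0.28). Fabp7, a lipid carrier of radial glia in the proneural set, read 239.8 and 260.1 CPM in the 4OH-TAM-labelled libraries and 699.8 and 618 CPM in the gliomaspheres (log2 fold change 1.40, SE 0.101, edgeR adjusted p = 1.36e-08). Among mesenchymal genes Lgals3, galectin 3, read 151 and 144 CPM in the 4OH-TAM-labelled libraries and 9.78 and 11.7 CPM in the gliomaspheres (log2 fold change -3.82, SE 0.0959, edgeR adjusted p = 7.2e-13) and the cytokine receptor Osmr 230.3 and 238 CPM in the 4OH-TAM-labelled libraries and 87.3 and 91.1 CPM in the gliomaspheres (log2 fold change -1.40, SE 0.0719, edgeR adjusted p = 3.17e-10). The widest gap of the mesenchymal set was thus that of Lgals3, which macrophages also express. Cd44 (-0.53) and Vim (-0.70) were lower by less, and Stat3 (0.29) and Wwtr1 were higher.

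Notch pathway genes were higher in 12 of 21 cases and lower in 4 (median 0.52). The target gene Hes5 read 0.83 and 0.873 CPM in the 4OH-TAM-labelled libraries and 6.37 and 5.75 CPM in the gliomaspheres (log2 fold change 2.84, SE 0.225, edgeR adjusted p = 3.56e-08), and the feedback inhibitor Nrarp read 2.57 and 2.99 CPM in the 4OH-TAM-labelled libraries and 14.1 and 14.1 CPM in the gliomaspheres (log2 fold change 2.34, SE 0.155, edgeR adjusted p = 4.97e-09). The ligand gene Dll1 read 14 and 15.4 CPM in the 4OH-TAM-labelled libraries and 48.3 and 50.4 CPM in the gliomaspheres (log2 fold change 1.74, SE 0.115, edgeR adjusted p = 4.88e-09), and the sugar transferase gene Lfng read 67.3 and 68.4 CPM and 166 and 169 CPM. Gliomaspheres were above the 4OH-TAM-labelled libraries in each. Of the receptors, Notch1 (0.56) and Notch3 (0.74) were higher and Notch2 (-0.99) lower, and the targets Hes1 (0.15) and Hey2 (-0.36) were not called while Heyl was lower (-3.46). Of 29 Wnt pathway genes 10 were higher and 10 lower, near the shares over all genes, with the secreted inhibitor genes Dkk3 (-3.02) and Wif1 (-2.14) lower and the targets Rnf43 (2.67) and Axin2 (0.52) higher. Of 11 Hedgehog genes 2 were higher and 5 lower, against 30.0% and 30.8% of all genes. Gli3 read 51.8 and 56.5 CPM in the 4OH-TAM-labelled libraries and 20.05 and 22.5 CPM in the gliomaspheres (log2 fold change -1.37, SE 0.0967, edgeR adjusted p = 1.06e-08). Ptch1 (0.01) was not called.

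Stem cell and SOX factors were higher only in part. Of 29 stem and progenitor genes 13 were higher and 10 lower, the latter near the 30.8% of all genes (median 0.02). Nes, the nestin gene, read 880.0 and 913 CPM in the 4OH-TAM-labelled libraries and 815 and 979 CPM in the gliomaspheres and had one of the highest adjusted p-values of all genes. Sox2 read 319 and 333 CPM in the 4OH-TAM-labelled libraries and 349 and 313 CPM in the gliomaspheres and was not called either. Prom1, the CD133 gene, was lower at 57 and 53.9 CPM in the 4OH-TAM-labelled libraries and 21.7 and 23.6 CPM in the gliomaspheres (log2 fold change -1.30, SE 0.0969, edgeR adjusted p = 1.8e-08), and Sox9 (-0.31) and Pax6 (-0.22) were slightly lower. Without 4OH-TAM B the lower count of the list was 6, and the adjusted p of Pax6 was 0.104 there and 0.297 without gliomaspheres A, both from edgeR. Among 13 SOX factors, Sox3 read 3.74 and 5.15 CPM in the 4OH-TAM-labelled libraries and 33.7 and 25.4 CPM in the gliomaspheres (log2 fold change 2.75, SE 0.17, edgeR adjusted p = 2.2e-09), and Sox5 (1.5), Sox11 (1.15), Sox4 (1.02) and Sox12 (0.89) were higher as well. The higher members of the stem list include its Notch and proneural genes Hes5, Nrarp, Dll1, Hes6 and Olig2.

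Astrocyte genes did not move as a group. Of 28 measured, 12 were higher, 6 lower and 10 not called (median 0.18). S100b, a calcium-binding protein, read 6.81 and 8.27 CPM in the 4OH-TAM-labelled libraries and 102 and 92.2 CPM in the gliomaspheres (log2 fold change 3.69, SE 0.126, edgeR adjusted p = 8.79e-12) and the retinal dehydrogenase gene Aldh1a1 12.2 and 10.9 CPM in the 4OH-TAM-labelled libraries and 68.4 and 72.3 CPM in the gliomaspheres (log2 fold change 2.60, SE 0.119, edgeR adjusted p = 1.06e-10). The glutamate transporter gene Slc1a2 read 825 and 906 CPM in the 4OH-TAM-labelled libraries and 1391 and 1753 CPM in the gliomaspheres (log2 fold change 0.86, SE 0.0961, edgeR adjusted p = 1.65e-06). Aqp4, the water channel of astrocyte endfeet, was lower at 2838 and 2909 CPM in the 4OH-TAM-labelled libraries and 1675 and 1566 CPM in the gliomaspheres (log2 fold change -0.83, SE 0.0767, edgeR adjusted p = 2.11e-07), as were glutamine synthetase Glul (-1.10), Clu (-0.79) and Apoe (-0.77). Aldh1l1 (0.27), Mlc1 (0.03) and Ndrg2 (-0.14) were not called. HER2CA day 15 had the lowest level of the 10 astrocyte genes named here, and Aldh1l1 read 34.4 and 47.5 CPM there against 377 and 440.4 CPM in controls.

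Receptors and channels were higher in gliomaspheres more often than lower. Of 40 measured receptor genes 21 were higher and 10 lower (6 lower without 4OH-TAM A, 4OH-TAM B or gliomaspheres A; median 0.45). Grm5, a metabotropic glutamate receptor gene, read 19.5 and 26.4 CPM in the 4OH-TAM-labelled libraries and 204 and 209 CPM in the gliomaspheres (log2 fold change 3.17, SE 0.112, edgeR adjusted p = 9.98e-12), and the GABA type B receptor gene Gabbr1 read 264 and 256 CPM in the 4OH-TAM-labelled libraries and 752 and 781 CPM in the gliomaspheres (log2 fold change 1.56, SE 0.0755, edgeR adjusted p = 1.73e-10). The ionotropic receptor genes Gria4 (1.94), Grik2 (2.06), Grin3a (2.51) and Gabrg1 (2.89) were higher, and Gria1 (-0.59) and Gabrb1 (-0.61) lower. Slc6a11, a GABA transporter gene of astrocytes and no member of these lists, read 22.5 and 27.5 CPM in the 4OH-TAM-labelled libraries and 290.3 and 319 CPM in the gliomaspheres (log2 fold change 3.61, SE 0.131, edgeR adjusted p = 1.19e-11). Of 34 channel genes 16 were higher and 8 lower (median 0.23). The calcium-activated potassium channel gene Kcnma1 read 4.61 and 5.07 CPM in the 4OH-TAM-labelled libraries and 39.6 and 46.5 CPM in the gliomaspheres (log2 fold change 3.14, SE 0.142, edgeR adjusted p = 9.62e-11), and Kcnj10, the main inward rectifier of astrocytes, read 289.9 and 294 CPM in the 4OH-TAM-labelled libraries and 659 and 708 CPM in the gliomaspheres (log2 fold change 1.23, SE 0.0877, edgeR adjusted p = 1.18e-08). Scn7a (7.97 and 7.69 CPM and 0.448 and 0.651 CPM) was the channel gene lowest in gliomaspheres relative to the 4OH-TAM-labelled libraries.

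Cell contact and neuronal genes leaned the same way. Cadherin and contact genes were higher in 21 of 30 cases and lower in 5 (median 0.40). Cdh20 read 44.7 and 45.9 CPM in the 4OH-TAM-labelled libraries and 177 and 173 CPM in the gliomaspheres (log2 fold change 1.95, SE 0.0889, edgeR adjusted p = 1.02e-10), and contactin 1, encoded by Cntn1, read 172 and 188 CPM in the 4OH-TAM-labelled libraries and 568 and 558 CPM in the gliomaspheres (log2 fold change 1.64, SE 0.0768, edgeR adjusted p = 1.22e-10), while the N-cadherin gene Cdh2 was lower by little (-0.32). Neuronal genes were higher in 11 of 19 and lower in 3 (median 0.87). The neurofilament gene Nefl read 13.2 and 13.3 CPM in the 4OH-TAM-labelled libraries and 60.3 and 44.1 CPM in the gliomaspheres (log2 fold change 2.0, SE 0.154, edgeR adjusted p = 2.75e-08) and Map2 328 and 348 CPM in the 4OH-TAM-labelled libraries and 623 and 626 CPM in the gliomaspheres (log2 fold change 0.89, SE 0.0708, edgeR adjusted p = 3.92e-08). Stmn2, a tubulin regulator of growing axons, went against them at 53.8 and 48.2 CPM in the 4OH-TAM-labelled libraries and 4.75 and 5.43 CPM in the gliomaspheres (log2 fold change -3.36, SE 0.121, edgeR adjusted p = 1.19e-11), and Dcx (-0.09), a marker of young neurons, was not called. Axon guidance genes were mixed, with 14 of 45 higher, near the 30.0% of all genes, and 21 lower (median -0.15).

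Hypoxia and glycolysis genes were higher by modest amounts than in the 4OH-TAM-labelled libraries, but their summed levels lay below those of controls. Hypoxia genes summed to 2957 and 3041 CPM in gliomaspheres and 5069 and 5150 CPM in controls. Glycolysis genes summed to 12294 and 13069 CPM and to 15218 and 17232 CPM in the same order. Hypoxia response genes were higher in 16 of 25 cases and lower in 4 (median 0.49). The carbonic anhydrase gene Car12 read 2.86 and 1.95 CPM in the 4OH-TAM-labelled libraries and 13.4 and 12.3 CPM in the gliomaspheres (log2 fold change 2.42, SE 0.18, edgeR adjusted p = 1.84e-08), and Egln1, an oxygen sensor, read 109 and 100.4 CPM in the 4OH-TAM-labelled libraries and 213 and 198 CPM in the gliomaspheres (log2 fold change 0.98, SE 0.0806, edgeR adjusted p = 5.74e-08). Vegfa, the angiogenic target, read 348 and 327 CPM in the 4OH-TAM-labelled libraries and 380.1 and 345 CPM in the gliomaspheres and was not called, and Ndrg1 was lower at 218 and 199.9 CPM in the 4OH-TAM-labelled libraries and 46.5 and 51.9 CPM in the gliomaspheres (log2 fold change -2.10, SE 0.0927, edgeR adjusted p = 8.01e-11). The hypoxia response letters ACGTGC were found in 10 of 19 promoters of the list (52.6%), against 8.03% of tested genes and 5.63% of the table. Glycolysis genes were higher in 12 of 20 and lower in 5 (median 0.34). The pyruvate kinase gene Pkm read 1509 and 1513 CPM in the 4OH-TAM-labelled libraries and 3009 and 3297 CPM in the gliomaspheres (log2 fold change 1.06, SE 0.0814, edgeR adjusted p = 2.52e-08), and Ldha, lactate dehydrogenase, read 489 and 432 CPM in the 4OH-TAM-labelled libraries and 907 and 847 CPM in the gliomaspheres (log2 fold change 0.93, SE 0.0856, edgeR adjusted p = 1.95e-07). The glucose transporter Slc2a1 (0.59) was higher and the lactate transporter Slc16a1 (-0.63) lower.

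Most genes of the large machines of the cell shifted little. Oxidative phosphorylation genes were higher in 46 of 79 cases and lower in 4, with a median of 0.31 and 0 members at least 2-fold higher. Cox6a2, Cox6b2 and Cox7a1, tissue-specific subunit genes of cytochrome oxidase, were the 3 at least 2-fold lower. Cox6a2 had 2 counts in the gliomaspheres against 66, a ratio of 21.6 with a 95% counting interval of 5.75 to 182, and the log2 fold changes of Cox6b2 and Cox7a1 were -1.40 and -1.27. Without gliomaspheres A, 33 genes of the list were higher and 12 lower. Cytosolic ribosomal protein genes were higher in 39 of 76 and lower in 0 (median 0.28), and these counts rested on single libraries: 64 were higher and 0 lower without gliomaspheres B, and 28 higher and 14 lower without gliomaspheres A. Proteasome genes were higher in 11 of 37, near the 30.0% of all genes, and lower in 5 (median 0.11). Fewer of them were called higher without 4OH-TAM B. Xist and the Y-linked Ddx3y were both found in every library: Xist read 465 and 493 CPM in the 4OH-TAM-labelled libraries and 584 and 692 CPM in the gliomaspheres, and Ddx3y read 83.1 and 86.7 CPM in the 4OH-TAM-labelled libraries and 47.4 and 42.2 CPM in the gliomaspheres. Ddx3y was lower in gliomaspheres (log2 fold change -0.91, SE 0.0884, edgeR adjusted p = 3.54e-07).

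Among all genes, the largest differences named by rule were in the groups above or in single genes of no list. The ranking takes called genes whose groups do not overlap, at 5 CPM or more in the higher group, and passes over microRNA and clone-named genes, so that Mir6236, Rpph1 and genes with few counts, Il1a and Fgf21 among them, are not in it. The largest increase in it was that of Fam64a, a gene of proliferating cells, at 1.16 and 0.956 CPM in the 4OH-TAM-labelled libraries and 20.9 and 22.3 CPM in the gliomaspheres (log2 fold change 4.33, SE 0.179, edgeR adjusted p = 3.77e-11). Cdca3 (4.13), Tk1, Mki67, Cdc20, Ube2c, Ccna2, St6gal2 (3.90), Aurkb, Troap (3.78), Spc24 (3.76) and Cdc25c (3.76) followed in that order, of which St6gal2 is a sialyltransferase gene. Lmnb1, a nuclear lamin gene, read 13.7 and 17.4 CPM in the 4OH-TAM-labelled libraries and 114 and 118 CPM in the gliomaspheres (log2 fold change 2.90, SE 0.106, edgeR adjusted p = 1.2e-11). The largest decrease in the ranking was that of Wisp2, a matricellular gene of the Ctgf family, at 16.9 and 15.4 CPM in the 4OH-TAM-labelled libraries and 0.269 and 0.217 CPM in the gliomaspheres (log2 fold change -5.96, SE 0.283, edgeR adjusted p = 1.41e-10), and it read 0.346 and 0.41 CPM at HER2CA day 15. Igf2, an imprinted growth factor gene, read 83.4 and 83.2 CPM in the 4OH-TAM-labelled libraries and 1.57 and 1.85 CPM in the gliomaspheres (log2 fold change -5.65, SE 0.138, edgeR adjusted p = 7.2e-13). Both genes were highest in the 4OH-TAM-labelled libraries among all groups. Traf1, an adaptor of TNF receptors, read 26.9 and 29.8 CPM in the 4OH-TAM-labelled libraries and 0.583 and 0.543 CPM in the gliomaspheres (log2 fold change -5.62, SE 0.204, edgeR adjusted p = 1.19e-11), and the matrix gene Ogn, the schlafen gene Slfn2 and the transporter gene Slco1a5 had log2 fold changes of -5.25, -4.86 and -4.76.

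Of genes at 100 CPM or more, St8sia2, which makes the polysialic acid of NCAM, read 101 and 108 CPM in the 4OH-TAM-labelled libraries and 7.89 and 9.77 CPM in the gliomaspheres (log2 fold change -3.61, SE 0.107, edgeR adjusted p = 3.22e-12), and S100a6, a calcium-binding protein, read 169.7 and 156 CPM in the 4OH-TAM-labelled libraries and 17.7 and 13.7 CPM in the gliomaspheres (log2 fold change -3.33, SE 0.11, edgeR adjusted p = 6.35e-12). Each was at least several times lower in gliomaspheres, which lay near or below the level of HER2CA day 15. At the other end, the genes with the highest p-values were Nes, March5, Gdi2 and Arhgap21. March5, a mitochondrial ubiquitin ligase gene, read 122 and 128 CPM in the 4OH-TAM-labelled libraries and 128 and 122 CPM in the gliomaspheres, and Gdi2, a Rab regulator gene, read 449 and 435 CPM in the 4OH-TAM-labelled libraries and 419 and 466 CPM in the gliomaspheres. Their groups overlapped.

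In 3 further promoter searches at most 3 promoters of the list held the letters: AP-1 (TGANTCA) in 0 of 14 ERK output promoters against 5.59% of tested genes and 7.82% of the table, SOX (ACAAAG) in 1 of 14 oligodendrocyte progenitor promoters (7.14%) against 14.7% and 18.6%, and NF-kB (GGGNNTTCC) in 3 of 18 inflammatory promoters (16.7%) against 7.21% and 5.61%. These counts cover the same 250-base window on both strands, and no match says only that the letters are not in it.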

How the data were processed

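RNA was sequenced from stranded polyA libraries, per the labels' protocols. The authors deposited 1 table of whole-number read counts per gene, not normalised as its values show; the submitters' processing notes name STAR 2.5.3a, featureCounts, FastQC, mm10 and GRCm38 without giving their roles. Columns were matched to samples by title.

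Rn45s and Lars2 were dropped. All 8 libraries entered edgeR 4.0.16 (R 4.3.3), with TMM factors, a group mean each and the quasi-likelihood test, and p-values were adjusted (Benjamini-Hochberg) over 13605 genes. filterByExpr removed none. SE is the absolute log2 fold change over the square root of F. The script was tested on simulated data. No pair of replicates agreed within sampling noise (chi-square per degree of freedom 4.02 to 21.8). Correlations of A minus B between groups were -0.0241 to 0.0829. They gave no sign that the letters pair libraries, but low correlations cannot exclude it.

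The comparison, gene lists and motifs were chosen with earlier results of these data known. The naming rule takes the targeted genes, the 12 largest differences in each direction, the 6 largest at 100 CPM or more, the 4 highest p-values, list members with the largest folds and those needed to account for a list; a few of these genes are not reported here. Positions are GENCODE M21 on GRCm38 (96.6% of symbols matched); promoters are RefSeq's, for 10338 genes. Alternatives were other scaling factors, filters, DESeq2 1.42.0, a 1.5-fold test, 4 libraries only, a replicate block and each library left out.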

Additional observations from a re-analysis of the deposited data

Results flagged for a closer look

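A signal outside the genes compared stood above its level in the control libraries. In gliomaspheres B the ribosomal RNA precursor row Rn45s took 36.1% of all counts, against 1.99% and 2.92% in the controls, and the Lars2 row took 2.77%, against 0.121% and 0.165%. In gliomaspheres A the same rows took 0.984% and 0.0457%. Both rows were left out of the comparison.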

How the results depend on the processing

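The number of calls stayed within 1.5 times under other scaling factors, filters and DESeq2 (7278 to 8305 genes called). The split between higher and lower was 3350 against 4927 without scaling factors. Of the 8271 calls, 7440 were kept in the same direction with DESeq2, 7648 with upper-quartile factors and 7539 without factors. At 5 CPM or more in 2 libraries, where fewer genes were tested, 7146 were kept. A test against a 1.5-fold change called 2993 genes, 1224 higher and 1769 lower, and there Yap1 (0.33) and Wwtr1 (0.52) were not called. At 5 CPM or more in 2 libraries, 1054 genes were at least 2-fold lower; low genes were left out there. With the replicate block 8266 genes were called. Whether the letters pair the libraries is not known. Leaving out each library gave 6918 to 7979 calls, with 1 call reversed: without gliomaspheres B, Mir6236 was -0.82, and Rpph1 was -0.81 and no longer called (5.72 and 6.67 without gliomaspheres A). Ribosomal protein genes called higher ranged from 28 to 64. Of 104 list counts, 56 and 49 were equal without 4OH-TAM A or B, and 42 and 64 without gliomaspheres A or B; 21, 21, 28 and 10 differed by 2 or more. Genes not called that gained a call without 1 library were Areg and Cdkn1a (without 4OH-TAM A and B respectively), Aldh1l1, Hes1, Hist2h2bb, Serpina3n and Twist1 (without gliomaspheres A), and Cdkn1a, Hey2, Irgm1 and Ndrg2 (without gliomaspheres B). Gfap and Slc1a3 were called lower with upper-quartile factors (adjusted p 0.0323 and 0.0462) and without factors. Gliomaspheres B, at 9487800 counts, limits genes of a few CPM.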
